A study of Mus musculus with 24 samples.

Results

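Transcription factor genes of neural progenitors and of cortical and other forebrain neurons were examined in brain RNA of Ts1Cje mice and 2N mice. The list named 37 genes, and every probe set was taken whose platform annotation gives a single gene symbol that is on the list. This gave 33 of the 13674 genes named on the arrays. They had 59 of 24833 probe sets, 41 of them on array A (MGU74A) and 18 on array B (MGU74B). Emx1, Emx2, Lhx2 and Otx2, the other 4 listed genes, were not analysed here.

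Ts1Cje mice, a model of Down syndrome, are trisomic for the distal end of chromosome 16, which is translocated onto chromosome 12 with Sod1 disrupted at its boundary. The 2N mice have the normal chromosome number. Total RNA of brain was measured in 6 Ts1Cje and 6 2N samples on each array design, 24 arrays in all. No label gives a brain region, age, sex or strain, or ties a sample to an animal of its own. The p-values therefore reflect the spread of these samples alone, part of which may be technical. In RNA of bulk tissue, fewer cells of a type and less RNA per cell cannot be told apart.

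In the developing forebrain, progenitors next to the ventricle are held in a dividing state by SoxB1 factors, Pax6 and the Notch targets Hes1 and Hes5. Proneural basic helix-loop-helix (bHLH) factors of the Neurog family start neuronal differentiation, Eomes marks intermediate progenitors, and the Neurod factors act in the young neurons that follow. Id proteins bind the E-protein partners of bHLH factors and hold them off DNA. Tbr1, Bcl11b, Sox5, Cux1, Cux2 and the class III POU factors then mark or specify neurons of particular cortical layers.

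None of the listed genes differed between the genotypes past the threshold on either array. With limma and a Benjamini-Hochberg adjusted p under 0.05 over each whole table, 0 of 36 tested probe sets of array A and 0 of 16 of array B passed, where the shares over all tested probe sets were 0.0966% and 0.0645%. At an unadjusted p under 0.05 the count was 1 of 36 (Pou3f2, array A) and 0 of 16 (array B), beside 3.63% and 4.24% of all tested probe sets. In 0 of the 52 probe sets did the genotypes separate without overlap. Of all tested probe sets, 0.193% on either array lay wholly higher in Ts1Cje, and 0.107% (array A) and 0.0537% (array B) wholly lower. Genes of the trisomic segment served as a check of the labels. Son, an RNA splicing cofactor gene, averaged 242 ± 20.6 in Ts1Cje brain and 127 ± 8.59 in 2N brain on array A (SD, n = 6 each; log2 difference 0.92, limma adjusted p = 1.03e-05). Ttc3 and Hmgn1 also rose, by 0.52 and 0.38 (limma adjusted p = 0.00065 and 0.0054).

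Values here are intensities after quantile normalisation. They depend on the probes of each set, so a brighter gene is not thereby a more abundant one. The median log2 difference, Ts1Cje minus 2N, was -0.06 over the 36 tested probe sets of array A and -0.0042 over all 9316 tested there. On array B it was 0.0028 over the 16 and -0.0035 over all 9308. It was above 0 for 13 of 36 and 9 of 16 probe sets, beside 48.9% and 49.3% of all tested. The array A differences lay between -0.54 and 0.31, and those of array B between -0.23 and 0.55.

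**Figure D1:**
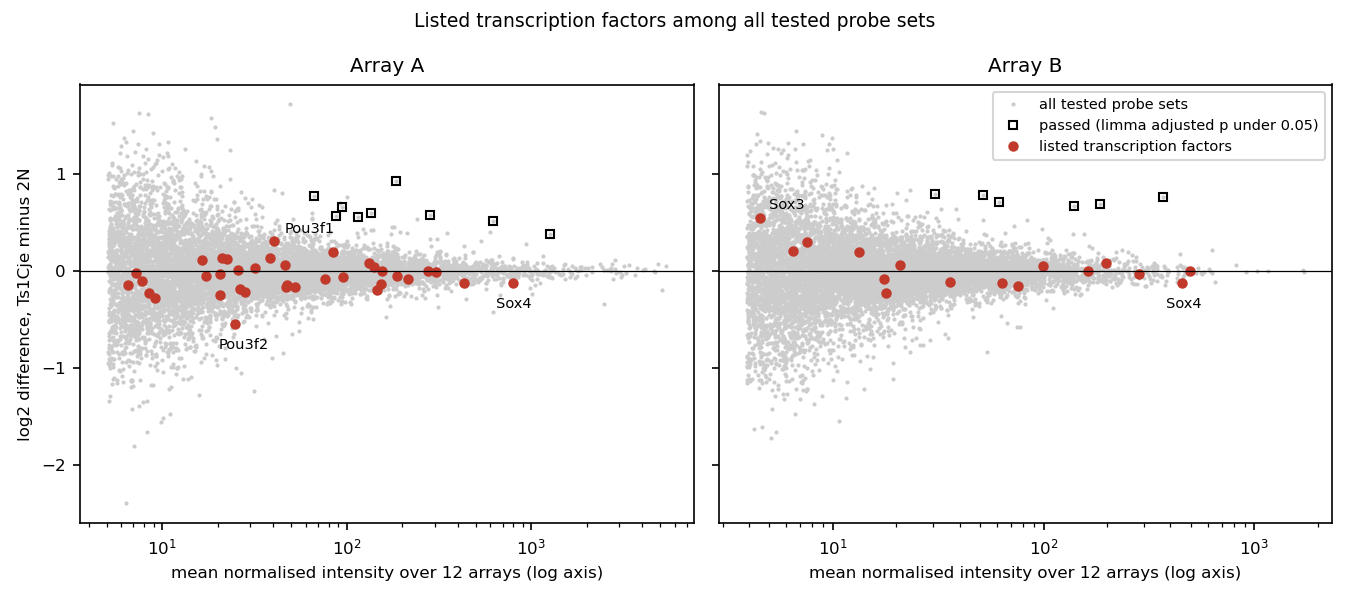
Log2 difference between Ts1Cje and 2N (vertical axis) against the mean normalised intensity over 12 arrays (horizontal, log axis) for every tested probe set of arrays A and B. The transcription factor probe sets (red) lie within the cloud of all tested probe sets (grey), and none is among those that passed (black squares).

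The 95% interval of the difference lay within 1.5-fold either way, the ratio of 3 gene copies to 2, for 25 of 36 probe sets of array A and 11 of 16 of array B, against 55.2% and 46.9% of all tested. These covered 23 of the 32 tested genes. The interval lay within 2-fold for 46 probe sets and 28 genes. The shares are not matched for brightness. Median intensities were 43.6 for the listed and 30.8 for all tested probe sets on array A, and 49.7 and 16.1 on array B. Otx1, Hes1, Neurog2, Eomes, Cux2, Sox5, Pou3f1, Pou3f2 and Meis1 had no probe set with an interval inside 1.5-fold, so a change of that size, in at least 1 direction, lies within the error for them. The missed threshold does not show that any of the genes was equal in the genotypes.

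**Figure D2:**
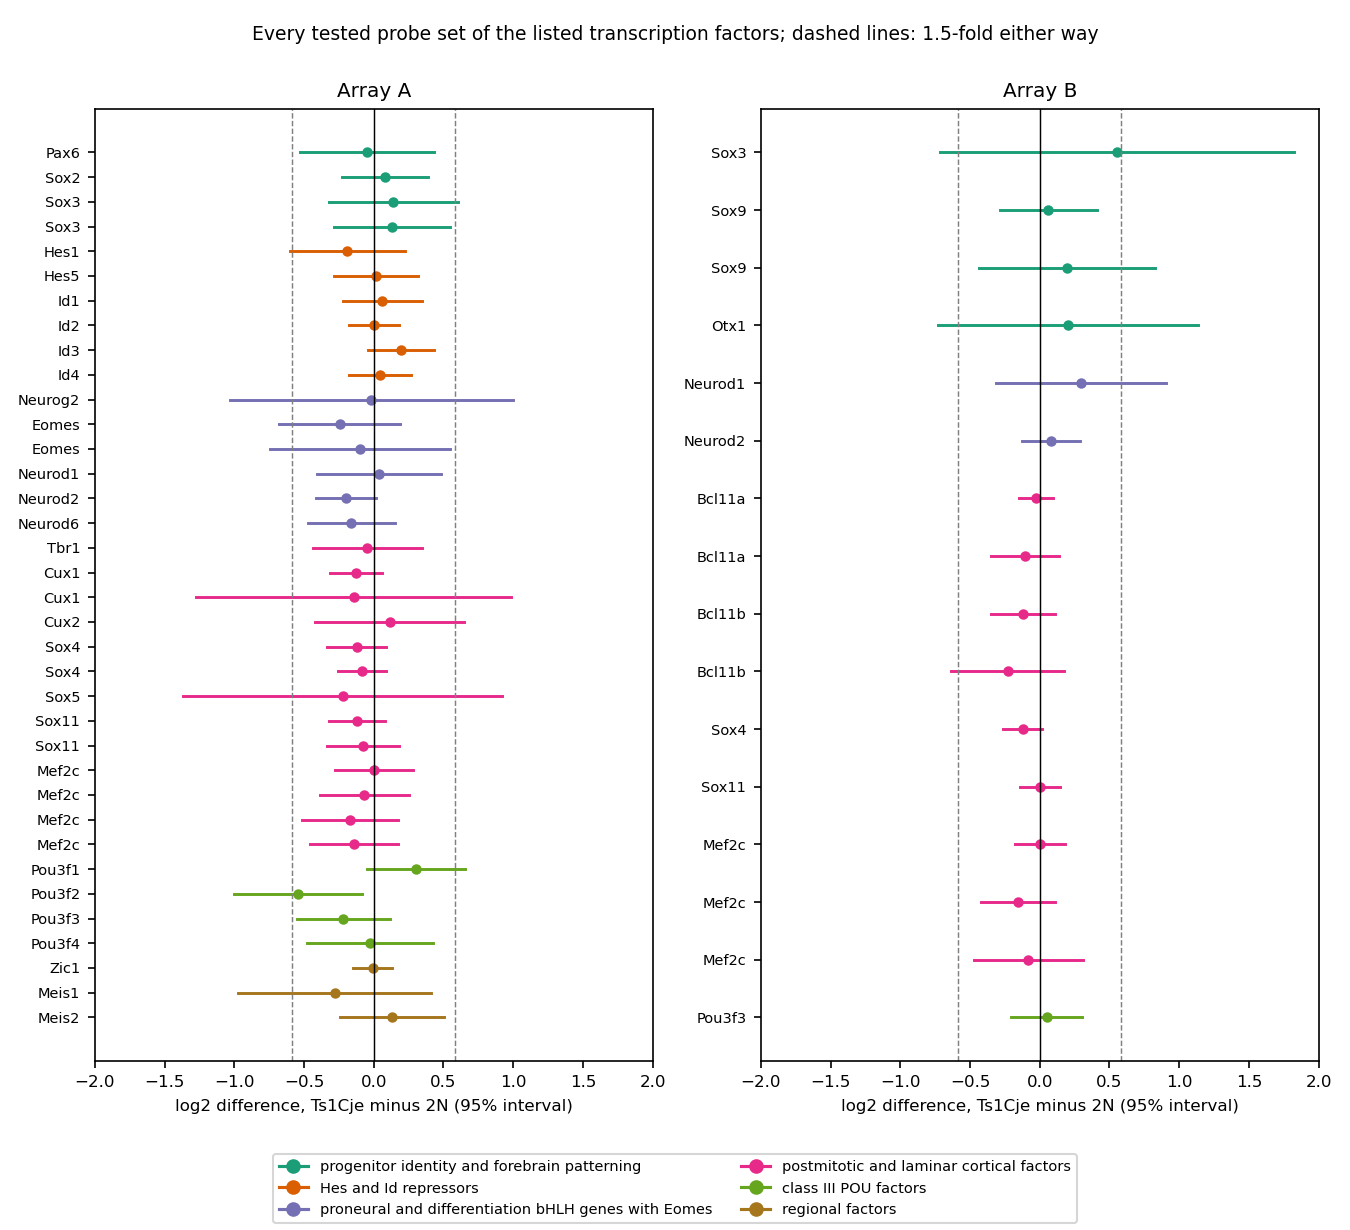
Log2 difference, Ts1Cje minus 2N, with its 95% interval for each tested probe set on array A (left) and array B (right), coloured by role; dashed lines mark 1.5-fold either way. Pou3f2 is the one probe set whose interval, -1.004 to -0.083, leaves out 0.

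Promoter letters are shown for 2 genes of different roles, Neurod2, whose probe sets differed in sign between the arrays, and Pou3f2, which had the smallest unadjusted p. Each is the 250 bases before the annotated start (RefSeq, GRCm38.p6), 5′ to 3′ on the gene's strand. Capitals mark a motif on either strand. For Neurod2 it is the E-box CANNTG, bound by bHLH factors, found 3 times and present in 66.2% of 32851 windows of the same length. For Pou3f2 it is the CCAAT box, found 2 times and present in 33.8%. The search allowed overlapping matches, but the marked ones do not overlap, and a match is a description of letters only.
Neurod2, chr11:98329646-98329895, - strand: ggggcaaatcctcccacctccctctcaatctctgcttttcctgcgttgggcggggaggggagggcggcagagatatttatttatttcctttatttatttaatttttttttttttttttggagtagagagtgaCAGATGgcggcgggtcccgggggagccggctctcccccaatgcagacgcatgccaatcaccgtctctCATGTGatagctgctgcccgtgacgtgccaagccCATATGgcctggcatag
Pou3f2, chr4:22488367-22488616, - strand: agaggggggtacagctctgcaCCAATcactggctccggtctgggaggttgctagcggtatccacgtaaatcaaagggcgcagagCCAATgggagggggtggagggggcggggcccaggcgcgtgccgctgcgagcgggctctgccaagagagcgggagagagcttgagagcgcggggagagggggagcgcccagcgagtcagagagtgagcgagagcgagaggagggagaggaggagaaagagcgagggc

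Among progenitor and patterning factors, 0 of 8 tested probe sets passed, and 7 of them lay above 0, beside 48.9% and 49.3% of all tested on arrays A and B. Sox3 gave 3 of the 7 and Sox9 gave 2, so these signs are not independent. Sox2, the SoxB1 factor that maintains neural stem cells, ran from 93.5 through a median of 133 to 184 in Ts1Cje brain and from 105 through 125 to 165 in 2N brain on array A. The ranges overlapped almost fully, and the lowest and the highest sample were both Ts1Cje. The log2 difference was 0.08 (SE 0.15, limma adjusted p = 0.99), with an interval of -0.23 to 0.39. Sox3, the X-linked SoxB1 gene, had 4 probe sets on array A, of which 2 were under the filter and not tested. The brightest ran from 25.1 through 39.0 to 54.6 in Ts1Cje and from 20.004 through 35.1 to 50.6 in 2N, a difference of 0.14 (SE 0.22, limma adjusted p = 0.99). Its array B probe set, near the floor at 1.78 to 8.76 in Ts1Cje and 1.35 to 9.41 in 2N, differed by 0.55 with an SE of 0.60, so that value is not resolved.

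Sox9, a factor of radial glia and gliogenesis, was measured on array B only. Its brighter probe set ran from 15.99 through 21.8 to 22.6 in Ts1Cje and from 13.3 through 20.6 to 24.9 in 2N (difference 0.06, SE 0.17, limma adjusted p = 0.996). Replicate 6 was the lowest sample in both genotypes. Pax6, the paired-box factor of cortical radial glia, averaged 16.8 ± 3.31 in Ts1Cje and 17.8 ± 5.71 in 2N (SD, n = 6; difference -0.05, SE 0.23). Otx1, an orthodenticle homeobox factor of forebrain patterning and deep-layer neurons, was dim at 6.36 ± 1.25 in Ts1Cje and 6.57 ± 3.46 in 2N on array B, and its interval of -0.73 to 1.13 was wide.

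The 6 Hes and Id genes were on array A, where 0 passed and 5 lay above 0, with a median difference of 0.03. Id2 was the most tightly measured. It ran from 239 through 287 to 304 in Ts1Cje and from 240 through 262 to 321 in 2N, and differed by 0.0016 (SE 0.087, interval -0.18 to 0.18, limma adjusted p = 0.998). In each genotype replicates 1 and 2 were its lowest samples. Id4, an Id gene of neural progenitors and astrocytes, ran from 126 through 145 to 165 in Ts1Cje and from 121 through 129 to 181 in 2N (difference 0.04, SE 0.11). Id3, which responds to BMP signals, ran from 74.98 through 87.3 to 117 in Ts1Cje and from 67.2 through 78.7 to 88.6 in 2N. Its difference of 0.19 (SE 0.11, interval -0.04 to 0.43, limma adjusted p = 0.99) did not pass. It was 0.46 within replicates 1 and 2 and 0.06 within replicates 3 to 6. Id1 averaged 47.5 ± 6.59 and 45.6 ± 7.54 in Ts1Cje and 2N brain (SD, n = 6; difference 0.06, SE 0.14).

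Hes5 differed by 0.02 (SE 0.14), with 26.0 ± 2.31 in Ts1Cje and 25.7 ± 2.94 in 2N (SD, n = 6). Hes1, the one listed gene on chromosome 16, lies on the centromeric side of Sod1 in gene order, outside the trisomic segment. It averaged 24.7 ± 5.40 in Ts1Cje and 28.1 ± 6.38 in 2N (difference -0.19, SE 0.20, limma adjusted p = 0.99). Of 26 other Notch pathway genes 18 were tested on array A and 7 on the other, with 0 passing in either direction and median differences of 0.0038 and -0.02. The brightest were the ubiquitin ligase gene Dtx1 and the Notch glycosyltransferase gene Rfng, at 0.07 and -0.09 on array A. Of 18 BMP pathway genes 15 and 7 were tested and 0 passed, with medians of 0.10 and 0.05. Smad1 and Smad4, which carry the BMP signal to the nucleus, differed by 0.10 and 0.02 on array A. A dimmer Smad1 probe set there differed by -0.09 (SE 0.13). All 3 E-protein genes were tested on array A and 0 passed. Tcf4 and Tcf12 differed there by 0.06 and 0.02, and Tcf4 by -0.10 on array B.

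**Figure D3:**
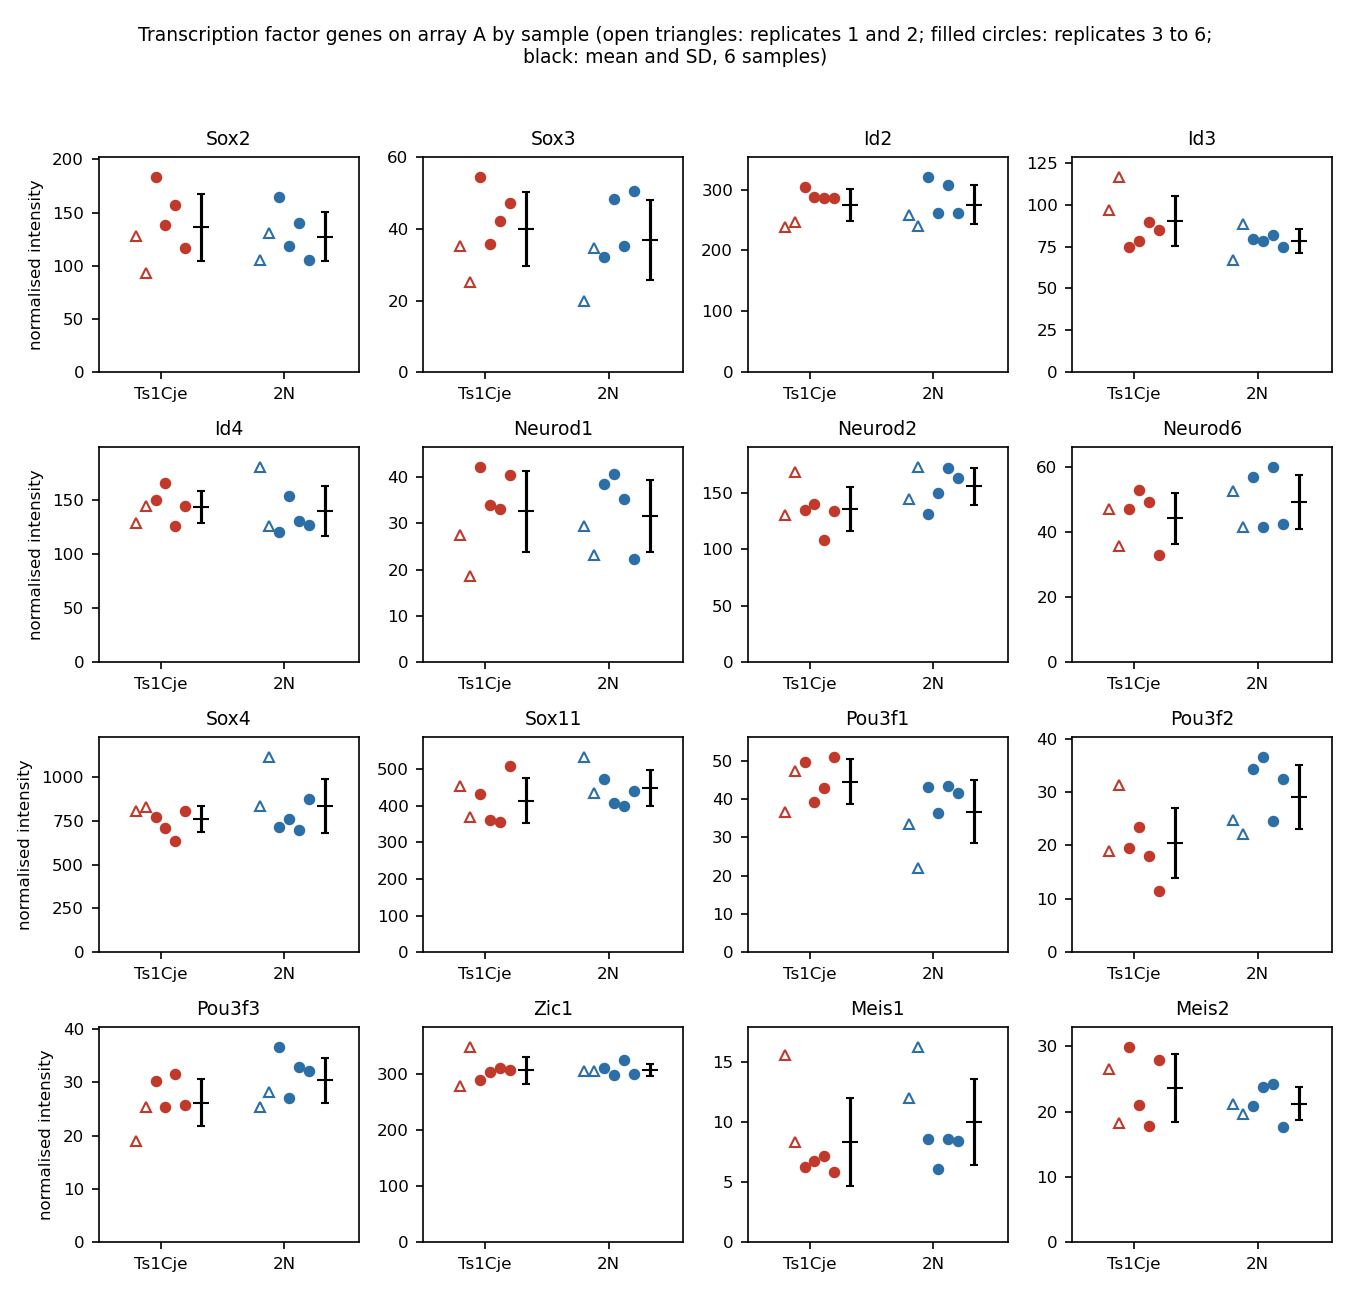
Normalised intensity of 16 transcription factor genes in each array A sample, Ts1Cje left and 2N right, with open triangles for replicates 1 and 2, filled circles for replicates 3 to 6 and black bars for the mean and SD of 6 samples. The genotypes overlap for every gene shown. For Pou3f2, 4 of 6 Ts1Cje samples lie below the lowest 2N sample and 0 above the highest. A Mef2c probe set of array B that differed by -0.08 also has 4 below, but its other 2 lie above all 2N samples.

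Among the proneural and differentiation bHLH genes and Eomes, 0 of 6 tested probe sets of array A and 0 of 2 of array B passed. On array A 5 of the 6 lay below 0, with a median of -0.13, and on array B both lay above it. Neurod2, a bHLH factor of cortical projection neurons, ran from 108 through 134 to 168 in Ts1Cje and from 132 through 157 to 173 in 2N on array A. The difference was -0.20 (SE 0.10, interval -0.42 to 0.02, limma adjusted p = 0.99). On array B it ran from 161 through 199 to 263 in Ts1Cje and from 174 through 190 to 226 in 2N, a difference of 0.08 (SE 0.099). Replicate 2 was the highest sample of both genotypes on both arrays, and the probe sets thus shared a replicate pattern but not the sign of the genotype difference.

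Neurod6, another bHLH factor of cortical projection neurons, ran from 33.1 through 47.2 to 52.9 in Ts1Cje and from 41.6 through 47.7 to 60.2 in 2N (difference -0.16, SE 0.15, limma adjusted p = 0.99). The medians differed little, and the 2 lowest samples, Ts1Cje replicates 2 and 6, lay below every 2N sample. Neurod1, which acts in newborn neurons and granule cells, ran from 18.5 through 33.5 to 42.2 in Ts1Cje and from 22.3 through 32.3 to 40.5 in 2N on array A (difference 0.04, SE 0.21). Its dim array B probe set averaged 8.45 ± 2.85 in Ts1Cje and 6.56 ± 0.854 in 2N (SD, n = 6; difference 0.30, SE 0.29). Eomes averaged 18.8 ± 3.87 in Ts1Cje and 22.4 ± 5.20 in 2N (difference -0.25, SE 0.21), and its dimmer probe set differed by -0.10 (SE 0.31). Neurog2, the proneural gene of dorsal forebrain progenitors, was at 7.34 ± 3.49 in Ts1Cje and 7.05 ± 3.45 in 2N, with an interval from -1.03 to 0.999. Both Neurog1 probe sets were under the filter and were not tested, at 4.98 ± 4.04 and 4.37 ± 4.40 in Ts1Cje and 5.21 ± 3.43 and 2.13 ± 1.32 in 2N (SD, n = 6).

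Among postmitotic and laminar factors, 0 of 13 tested probe sets of array A and 0 of 9 of array B passed. On array A 11 of 13 lay below 0, with a median of -0.12, and on array B 7 of 9, with a median of -0.11. Several of these probe sets measure the same gene, and the arrays may hold the same RNA, so the counts are not independent. Sox4 and Sox11, SoxC factors of newborn neurons, were measured on both arrays. On array A Sox4 ran from 637 through 787 to 829 in Ts1Cje and from 699 through 798 to 1115 in 2N (difference -0.12, SE 0.10, limma adjusted p = 0.99). On array B it ran from 395 through 442 to 470 in Ts1Cje and from 446 through 468 to 528 in 2N (difference -0.12, SE 0.067, limma adjusted p = 0.996). The interval on array B was -0.26 to 0.02, and 3 of its 6 Ts1Cje samples lay below the lowest 2N sample. The brighter Bcl11a probe set of array B also had 3 such samples, at a difference of -0.03, but 1 Ts1Cje sample lay above all 2N samples. Sox11 on array A and a Mef2c probe set of array B had 3 below and 0 above, as Sox4 did, at -0.12 and -0.16. This count is thus not particular to Sox4.

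Sox11 ran from 355 through 401 to 507 in Ts1Cje and from 400 through 438 to 533 in 2N on array A (difference -0.12, SE 0.095, limma adjusted p = 0.99). On array B it ran from 442 through 487 to 584 in Ts1Cje and from 461 through 495 to 512 in 2N (difference 0.0033, SE 0.069). The dimmer Sox11 probe set of array A, whose name ends in _f_at and whose probes may be shared with related sequences, differed by -0.08 (SE 0.12). Bcl11a, a zinc finger factor of projection neurons, had the narrowest interval of all the tested probe sets listed. It ran from 268 through 279 to 295 in Ts1Cje and from 278 through 284 to 291 in 2N on array B (difference -0.03, SE 0.058, interval -0.15 to 0.09).

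Bcl11b, needed by subcortical projection neurons and striatal neurons, averaged 60.7 ± 6.81 in Ts1Cje and 66.2 ± 9.40 in 2N on array B (SD, n = 6; difference -0.12, SE 0.11). Like Sox11 and Id2 it lies on chromosome 12, which carries the translocated segment. Tbr1, the T-box factor of deep-layer neurons, averaged 187 ± 60.0 in Ts1Cje and 189 ± 42.8 in 2N (difference -0.05, SE 0.19), with a wide spread within each genotype. The homeobox factors of upper layers, Cux1 and Cux2, differed by -0.13 (SE 0.088) and 0.11 (SE 0.25). Cux1 averaged 147 ± 15.9 in Ts1Cje and 161 ± 12.01 in 2N (SD, n = 6), and Cux2 17.1 ± 4.37 and 15.9 ± 4.67. Sox5, a SoxD factor of deep layers, was dim and differed by -0.22 with an SE of 0.54. Mef2c, a MADS-box factor of neurons that microglia and endothelium also express, had 7 tested probe sets with differences from -0.17 to 0.0028. The brightest, on array B, averaged 162 ± 12.3 in Ts1Cje and 162 ± 17.2 in 2N.

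**Figure D4:**
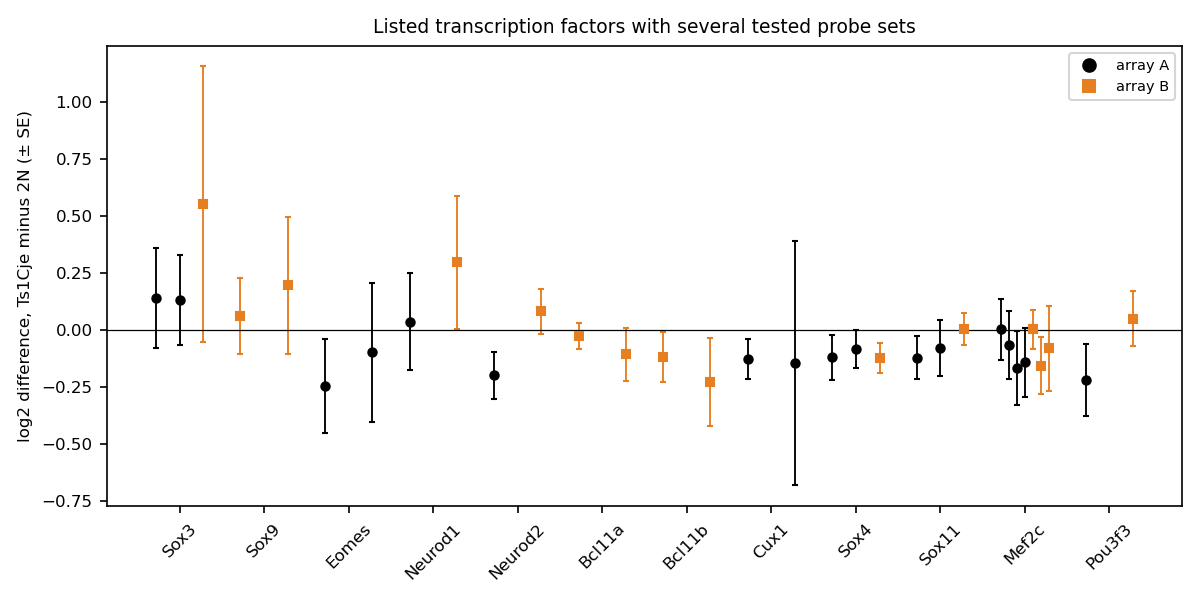
Log2 difference, Ts1Cje minus 2N, with its standard error for each tested probe set of the 12 genes that had several (black circles, array A; orange squares, array B). All probe sets of a gene have the same sign for 8 genes; those of Neurod2, Sox11, Mef2c and Pou3f3 do not.

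The class III POU factors, which act in neural progenitors and upper-layer neurons, held both ends of the array A range. Pou3f2 ran from 11.5 through 19.3 to 31.4 in Ts1Cje and from 22.1 through 28.6 to 36.6 in 2N. Of the Ts1Cje samples 4 of 6 lay below all 2N samples, while replicates 2 and 4 lay among them. The dimmest Mef2c probe set of array B also had 4 Ts1Cje samples below all 2N samples, at a difference of -0.08 (SE 0.19). Its other 2 Ts1Cje samples lay above all 2N samples, whereas Pou3f2 had 0 above, so the 2 patterns differ. The count below is alone not particular to Pou3f2, and it was not taken over all tested probe sets. The mean was 20.5 ± 6.59 in Ts1Cje and 29.1 ± 6.03 in 2N (SD, n = 6), and the fitted ratio was 0.69, or -0.54 in log2 (SE 0.22, limma unadjusted p = 0.023, adjusted p = 0.99). The difference was -0.85 within replicates 3 to 6 (SE 0.23, limma adjusted p = 0.71) and 0.06 within replicates 1 and 2 (SE 0.38). With 1 sample left out in turn, its unadjusted limma p ran from 0.0046 without Ts1Cje replicate 2 to 0.062 without Ts1Cje replicate 6.

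Pou3f1, a POU factor of cortical projection neurons and Schwann cells, ran from 36.7 through 45.2 to 51.1 in Ts1Cje and from 21.9 through 39.0 to 43.5 in 2N. The difference of 0.31 (SE 0.17, interval -0.05 to 0.66, limma adjusted p = 0.99) did not pass. It was 0.62 within replicates 1 and 2 and 0.15 within replicates 3 to 6. Pou3f3 ran from 19.0 through 25.6 to 31.5 in Ts1Cje and from 25.3 through 30.1 to 36.6 in 2N on array A (difference -0.22, SE 0.16). On array B it ran from 95.8 through 99.98 to 103 in Ts1Cje and from 63.5 through 102 to 118 in 2N (difference 0.05, SE 0.12), where the Ts1Cje samples all lay inside the 2N range. The X-linked Pou3f4 averaged 20.3 ± 4.41 in Ts1Cje and 21.1 ± 6.93 in 2N (difference -0.03, SE 0.22).

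Of the regional factors, Zic1, a zinc finger factor of dorsal midline, septal and cerebellar granule neurons, was the most even. It ran from 278 through 305 to 348 in Ts1Cje and from 297 through 305 to 325 in 2N (difference -0.0079, SE 0.065, interval -0.15 to 0.13, limma adjusted p = 0.998). Meis2, a TALE homeobox factor of the striatum, ran from 17.8 through 23.8 to 29.9 in Ts1Cje and from 17.6 through 21.1 to 24.1 in 2N (difference 0.13, SE 0.18). Meis1, the related factor, ran from 5.86 through 6.96 to 15.5 in Ts1Cje and from 6.06 through 8.61 to 16.2 in 2N (difference -0.28, SE 0.33). Its replicates 1 and 2 lay above replicates 3 to 6 in both genotypes, and the name of its probe set ends in _s_at, so its probes may be shared between sequences.

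A split into replicates 1 and 2 against replicates 3 to 6, known from earlier results of these data and in no label, was followed through the list. The mean Spearman correlation was 0.942 between arrays of the same set and 0.932 between the sets on array A, and 0.908 against 0.904 on array B. Id2 lay lower and Meis1 higher in replicates 1 and 2 in both genotypes, which is 1 of 36 array A probe sets in each direction, beside 2.45% and 2.22% of all tested. On array B 0 of 16 did so, beside 2.08% and 2.37%. The median spread within a genotype was 0.30 (SD on the log2 scale) for the tested probe sets of the list and 0.31 for all tested on array A, and 0.24 and 0.36 on array B. These spreads were not matched for brightness, and the listed probe sets were brighter in median on both arrays.

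Other genes of the same cells were compared as lists. Of 12 progenitor markers outside the list, 10 were tested on array A and 3 on the other, and 0 passed, with medians of -0.02 and -0.04. Fabp7, a radial glial lipid-binding protein gene, differed by 0.0022 and the cadherin gene Cdh2 by -0.04. Of 16 markers of newborn and projection neurons 10 and 6 were tested and 0 passed. The tubulin gene Tubb3 and the stathmin gene Stmn2 differed by 0.07 and 0.05, and 9 of the 10 on array A lay above 0, with a median of 0.06. On array B 3 of the 6 did, with a median of 0.0051. Of all tested probe sets 48.9% and 49.3% lay above 0. These counts take the brightest probe set of each gene. Dimmer ones on array A lay below 0 for Tubb3 (-0.04), Foxp1 (-0.05) and Reln (-0.76, SE 0.41). They lay above 0 for Stmn2 (0.09 and 1.19) and Nrp1 (0.13). On array B the dimmer Cntn2 probe set differed by -0.21 (SE 0.078, limma unadjusted p = 0.016, adjusted p = 0.996) and the brighter by -0.06. Of 13 ventral forebrain genes 9 and 2 were tested and 0 passed, with Gad1 at -0.01 and Dlx1 at -0.07 on array A. There 4 of 9 lay above 0, with a median of -0.01, and on array B 0 of 2, with a median of -0.18.

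Markers of other cells that express listed factors gave 0 calls. The summed array A level of 8 endothelial markers ran from 342 to 422 in Ts1Cje and from 324 to 411 in 2N, with Cldn5 and Eng at 0.05 and 0.27. Of these 8 markers 6 lay above 0, with a median of 0.14. On array B Flt1, a VEGF receptor gene, differed by -1.07 (SE 0.38, limma unadjusted p = 0.012, adjusted p = 0.996) and Eng by 0.23. On array A the brighter Flt1 probe set was at -0.09 (SE 0.31) and the dimmer at -0.58 (SE 0.51). The array A sum of 6 microglial markers ran from 226 to 319 in Ts1Cje and from 256 to 320 in 2N, with C1qc and C1qa at -0.32 and 0.03. Of these 6 markers 2 lay above 0, with a median of -0.16. On array A the sum was, for 4 cerebellar granule cell markers, 302 to 340 in Ts1Cje and 284 to 354 in 2N, and for 7 meningeal markers 1231 to 1761 in Ts1Cje and 1333 to 1595 in 2N. The astrocyte sum ran from 980 to 1342 in Ts1Cje and from 1081 to 1325 in 2N over 6 markers, and the oligodendrocyte sum from 193 to 236 and from 177 to 236 over 4. Median differences on array A were 0.06 (cerebellar granule), -0.06 (meningeal), 0.0043 (astrocyte) and -0.06 (oligodendrocyte, with 0 of 4 above 0). The brightest probe set of Ptgds, a meningeal marker, was at -0.06 (SE 0.11). Its dimmer probe sets, whose names end in _f_at, lay at -0.42 (SE 0.15, limma unadjusted p = 0.014, adjusted p = 0.99) and -0.12 (SE 0.096). The array B sum of 2 oligodendrocyte lineage markers ran from 90.6 to 124 in Ts1Cje and from 57.9 to 107 in 2N. There Sox10 differed by 0.46 (SE 0.13, limma unadjusted p = 0.0023, adjusted p = 0.92) and Olig2 by 0.33, while Sox10 on array A was at -0.06. The array A choroid plexus sum over 3 markers ran from 203 to 355 in Ts1Cje and from 159 to 474 in 2N. Ttr was at 0.06, Folr1 at 0.36 and Aqp1 at 0.64 (SE 0.37), so all 3 lay above 0. Dimmer array A probe sets of Folr1 and Aqp1 lay at -0.63 (SE 0.61) and -0.40 (SE 0.53). On array B Clic6, another choroid plexus marker, differed by 0.42 (SE 0.16, limma unadjusted p = 0.014, adjusted p = 0.996). Of 6 retinal markers only Crx passed the filter, at -0.41 (SE 0.24). The ranges of every one of these sums overlapped between the genotypes. Some sums mostly follow 1 bright gene. On array A these were Apoe (astrocyte), Ptgds (meningeal) and Ttr (choroid plexus), with mean intensities of 969, 837 and 241. Overlap of such a sum says little of its dimmer markers. The part of these cells in the values above was not tested.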

How the data were processed

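The authors deposited 1 intensity per probe set and sample on a linear scale, in 1 table for each array design. Their summary method, software and scaling are not given in the sources used here. Medians of the deposited intensities were 11.2 to 21.7 for array A, and 7.9 to 13.8 for array B. After 66 control probe sets were left out of each table, the 2% trimmed means differed by up to 2.10-fold and 1.86-fold, above the 5% allowed, so each table was quantile normalised. Values under the 10th percentile of the table (1.47 and 1.13) were set to it before taking log2. Those with a mean intensity at or above the 25th percentile (5.11 and 3.90) were tested with limma 3.58.1 in R 4.3.3 (lmFit, eBayes with trend), Ts1Cje minus 2N with no other term. The arrays were fitted apart. The number of arrays limits precision. Of the 59 probe sets listed, 7 fell under the filter, namely 2 each of Sox3 and Neurog1 and 1 each of Hes5, Bcl11b and Sox11.

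A gene's brightest probe set represents it on each array. Values by sample were given for genes with an unadjusted p under 0.05 and for the 3 brightest genes of each role; in other lists the 2 brightest genes were named. Gene names come from the platform annotation, and chromosomes and gene order from RefSeq (GRCm38.p6). The genes and lists were chosen with earlier results of these data known. The procedure was also run on simulated data with independent noise and a scale factor for each array. Those data held no replicate split or pairing, so the run cannot show how the procedure behaves with them. Alternatives changed normalisation, floor, offset, filter, variance trend, array weights, replicate terms and samples.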

Additional observations from a re-analysis of the deposited data

Results flagged for a closer look

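Of 104 groups of 6 samples (each tested probe set of the list in each genotype), 10 held a sample set apart from the others by more than Dixon's 95% critical value of 0.625, and chance flags about 5% of groups. The ratio was taken on log2 values after the floor, while the intensities given below are linear. On array A there were 3 in 72 groups and on array B 7 in 32, or 21.9%. On array A Ts1Cje replicate 3 was highest for a Mef2c probe set, at 64.3 with the next at 44.3. Ts1Cje replicate 1 was highest for Meis1, at 15.5 with the next at 8.31. In 2N, replicate 1 was highest for Pou3f4, at 34.8 with the next at 20.5.

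On array B Ts1Cje replicate 6 was lowest for the brighter Sox9 probe set, at 15.99 with the next at 21.8, and Ts1Cje replicate 2 highest for Sox11, at 584 with the next at 490. In 2N, replicate 5 was lowest for the dimmer Sox9 probe set, at 4.2 with the next at 11.1, and replicate 2 highest for Neurod2, at 226 with the next at 190.3. Otx1 was lowest in 2N replicate 3, at 1.24 with the next at 5.23. Mef2c was lowest in 2N replicate 1 for its brightest probe set, at 128 with the next at 164, and highest in 2N replicate 5 for another, at 88.7 with the next at 78.8.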

How the results depend on the processing

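With limma, 0 probe sets of the list passed under every alternative run on either array: 15 that changed the processing, threshold or replicate terms and 12 that left out 1 sample. The number at an unadjusted p under 0.05 ran from 0 to 2. The median difference was -0.12 to -0.01 under 16 alternatives and -0.08 to -0.04 without 1 sample on array A. For array B it was -0.03 to 0.06 and -0.05 to 0.02, and its sign changed 9 times. Calls over all probe sets, 9 and 6, were 0 and 0 without normalisation, 4 and 3 with median scaling, and 2 and 0 without the variance trend; without 1 sample they were 6 to 11 for array A and 1 to 6 for array B. Of 641 values of named genes under alternatives, other probe sets included, 630 moved by less than the spread between samples and 44 changed sign, none with a call. Part of the 641 could not move. The filter, variance trend and replicate terms leave the difference itself unchanged, and the floor does so for bright genes. The count of 630 therefore says little of how stable the differences are. Pou3f2 was at -0.14 with 64 added before log2 and at 0.06 in replicates 1 and 2 alone. Pairing was examined on log2 values of the tested probe sets after the mean of each genotype was subtracted. These remainders correlated between same-numbered Ts1Cje and 2N samples at 0.017 to 0.077 (array A) and 0.013 to 0.11 (array B). On each array 4 of 6 correlated best with their own number. This is a hint of pairing that comes from the data and not from the labels, which state none. With the replicate block 0 passed on either array and 1 probe set on each had an unadjusted p under 0.05; in this balanced design the block cannot move the differences themselves. Dim probe sets limit Otx1, Neurog2, Sox5 and Sox3 on array B.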
